A study of Mus musculus with 6 samples.

Results

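S100a9 and Camp, a pair of genes that neutrophils use for host defence, were followed across heart, whole blood and plasma of mice with acute heart failure (HF) and of control mice. They were taken as all probes that carry either gene name in the name table of the array's protein-coding transcripts. These were 2 genes with 1 probe each, of 4093 named mRNA probes and 59729 probes on the array in all. HF was induced in male C57BL/6J mice with isoproterenol, which stimulates β-adrenergic receptors, injected under the skin at 40 mg/kg/day over 1 week. Saline was injected into the controls. RNA of 5 mice was mixed for each of the 6 mixtures (heart, whole blood and plasma, each from control and from HF mice), and each mixture was hybridised to 1 array in a single colour. For the blood samples the extraction steps of the methods describe material of more mice, and how many entered those mixtures could not be settled. Blood was taken by removing the eyeball, and plasma was centrifuged and filtered to remove cells. Ribosomal RNA was removed and the remaining RNA was copied with random primers along the whole transcript. No condition had a replicate array, so no difference carries a test, a p value or an SD. The errors given are those that the scanner software assigned to a spot, and they cover the measurement of that spot only.

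Neutrophils are short-lived white blood cells that are made in the bone marrow and store antimicrobial proteins in granules formed in an order as the cells mature. Azurophil granules come first and hold proteases and peroxidase, specific granules follow with lactoferrin, lipocalin and cathelicidin, and gelatinase granules come last. S100a9 is a calcium-binding protein that pairs with S100a8 to form calprotectin, which fills the cytosol of neutrophils and, at a lower level, of monocytes, binds zinc and manganese, and acts outside the cell on the receptors Tlr4 and Ager. Camp encodes cathelicidin, the precursor of an antimicrobial peptide that is stored in specific granules, cut free by proteases, and able to attract leukocytes through formyl peptide receptors. In the injured heart neutrophils are among the earliest leukocytes to arrive.

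The 250 bases before the start of each gene are shown because the transcript levels of both genes were higher in HF in every tissue. The sequences are from RefSeq (GRCm38.p6) and were matched by gene symbol. That of S100a9 lies at chr3:90695722-90695971 and that of Camp at chr9:109849457-109849706, both on the minus strand. They are written from 5′ to 3′ on the strand of the gene, and capitals mark a match to TGNNGCAAT, a form of the site of C/EBP factors, which drive granulocyte genes. This motif was chosen after the sequences had been read.
S100a9: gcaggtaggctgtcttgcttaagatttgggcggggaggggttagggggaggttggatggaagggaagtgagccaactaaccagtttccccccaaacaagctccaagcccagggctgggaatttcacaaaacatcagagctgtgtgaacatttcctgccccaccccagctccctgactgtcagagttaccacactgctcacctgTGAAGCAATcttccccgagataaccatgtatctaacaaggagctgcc
Camp: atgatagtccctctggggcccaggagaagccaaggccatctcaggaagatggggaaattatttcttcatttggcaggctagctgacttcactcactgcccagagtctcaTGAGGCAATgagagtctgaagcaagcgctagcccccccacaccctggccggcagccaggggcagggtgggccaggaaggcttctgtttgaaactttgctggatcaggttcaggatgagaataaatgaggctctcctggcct
The match in S100a9, TGAAGCAAT, ran from 47 to 39 bases before the start, and that in Camp, TGAGGCAAT, from 141 to 133 bases before it. Searched on both strands, TGNNGCAAT was found in 586 of 32817 mouse promoters of the same length (1.79%). Neither window held GAGGAA, a core of the site of the myeloid factor PU.1 found in 23.3% of these promoters, or TATAAA, the TATA box, found in 12.4%. Of 16 other genes of the neutrophil lists with a promoter in the table, 1 held TGNNGCAAT, that of Cybb. GC content was 53.6% in the S100a9 window and 55.2% in the Camp window. These matches describe letters and do not show that a factor was bound.

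A probe was counted as detected on an array where the scanner software flagged its spot as well above background with no outlier flag, and 25% to 47.3% of the probes were detected on an array. Both heart arrays and the arrays of HF whole blood and HF plasma shared 1 scan of a slide, while control whole blood and control plasma shared another. In both blood comparisons, therefore, HF and the scan cannot be told apart, whereas the heart comparison lies within a scan. Markers checked the tissue labels. All 23 cardiomyocyte probes were detected in HF heart and 22 in control heart, and the natriuretic peptide genes that mark cardiac load were higher in HF heart, by 6.69-fold for Nppa and 6.49-fold for Nppb. HF whole blood stood apart, with 22 of the 23 cardiomyocyte probes detected against 7 in control whole blood. After normalization Nppa was at least 854-fold higher there than in control whole blood, a bound whose size rests on the normalization. Plasma stood apart in the other direction. Control plasma held the 6 erythroid probes at a summed level 1.06-fold below control whole blood, so that it carried red cell transcripts at the level of blood, while in HF plasma the sum was 36.9-fold lower than in control plasma. On HF plasma the scanner software flagged 12.4% of the 1200 negative control spots as well above background, against 0.5% to 4.33% on the other arrays, so detection there is less certain. No result on blood can be given without these arrays, since each condition has no other.

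S100a9 transcripts were found in all 6 mixtures and were most abundant in HF whole blood. The processed signal of S100a9 was 669 ± 67.2 for control and 2014 ± 201 for HF hearts, 700 ± 71.1 and 4395 ± 440 for whole blood of the same groups, and 694 ± 69.6 and 1453 ± 145 for their plasma. All control mixtures lay close together before normalization, and each HF mixture lay above every control mixture. The probe was detected on all 6 arrays, free of outlier flags and not saturated, and lay 8.3 to 217 times above the 99th percentile of the negative control spots. After quantile normalization over the 6 arrays, which sets all arrays to 1 distribution, the log2 levels of S100a9 were 7.99 and 10.06 for control and HF hearts, 9.39 and 13.53 for whole blood, and 9.77 and 11.92 for plasma, with errors of 0.14 or 0.15. On this scale HF whole blood was highest and control heart lowest, and control whole blood and control plasma were neighbours. In HF whole blood 98.7% of all probes lay below S100a9, against 87.4% in control heart.

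Camp transcripts showed the same order of HF above control, from a lower start in the heart. The processed signal of Camp was 80.6 ± 10.5 for control and 1437 ± 144 for HF hearts, 245 ± 27.4 and 2185 ± 219 for whole blood of the same groups, and 197 ± 20.6 and 1419 ± 142 for their plasma. The HF mixtures again lay above every control mixture, and control heart was the lowest of all. Its probe was also detected on all 6 arrays with no outlier flag and no saturation. Against the 99th percentile of the negative spots, however, it stood at only 2.29 times in control heart and 2.9 times in control whole blood. This limits the precision of the changes in heart and whole blood. The normalized log2 levels of Camp were 5.14 ± 0.19 and 9.60 ± 0.14 for control and HF hearts, 7.90 ± 0.16 and 12.29 ± 0.14 for whole blood, and 8.0 ± 0.15 and 11.89 ± 0.14 for plasma. HF whole blood was highest, HF plasma lay 0.40 ± 0.20 below it, and control whole blood and control plasma differed by less than their error.

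**Figure D1:**
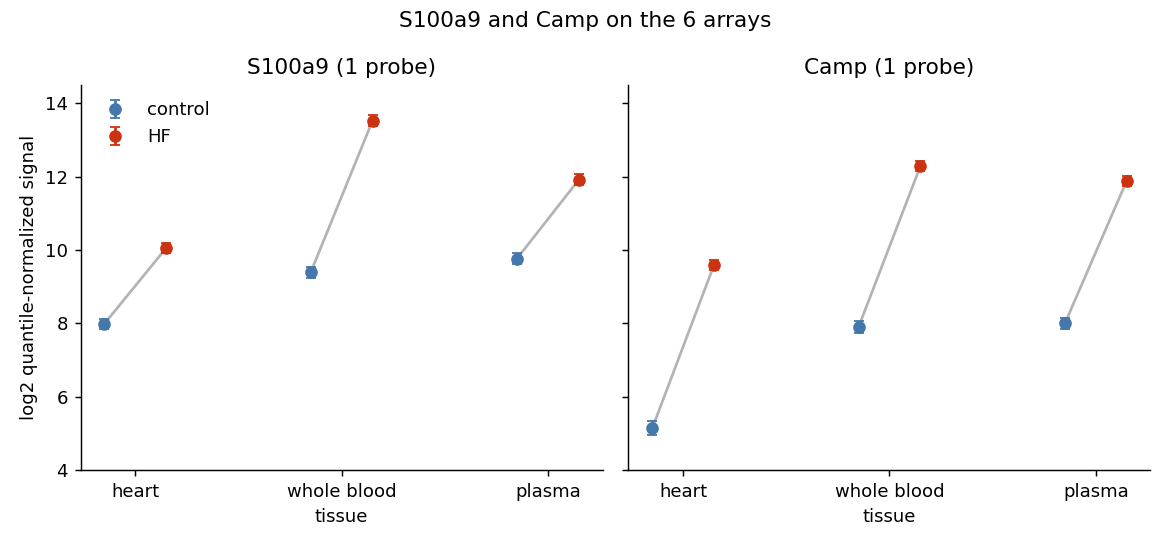
Quantile-normalized log2 signal (y axis) of the S100a9 probe (left) and the Camp probe (right) in heart, whole blood and plasma, with control mixtures in blue, HF mixtures in red, a grey line joining the arrays of a tissue, and bars for the error of the scanner software on 1 spot. Every HF point lies above every control point of the same gene, and HF whole blood is highest for both, at 13.53 for S100a9 and 12.29 for Camp.

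In the heart, where control and HF arrays shared the scan, S100a9 was 4.21-fold higher in HF (2.08 ± 0.20 on the log2 scale) and Camp 22.1-fold higher (4.47 ± 0.24). Both genes were thus past 2-fold, a change that 13.9% of the 20065 probes detected on both heart arrays showed in the same direction. An increase as large as that of S100a9 was seen for 502 of these probes (2.50%) and as large as that of Camp for 38 (0.189%). The unnormalized signals differed by 3.01-fold for S100a9 and 17.8-fold for Camp.

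In whole blood S100a9 was 17.7-fold higher in HF (4.14 ± 0.21) and Camp 21.0-fold higher (4.39 ± 0.22). Among the 11938 probes detected on both whole blood arrays 21.4% were at least 2-fold higher, 93 (0.779%) by as much as S100a9 and 68 (0.570%) by as much as Camp. The size of these changes rested on the normalization, since the unnormalized signals differed by 6.28-fold for S100a9 and 8.92-fold for Camp. A larger number of neutrophils in a tissue and more RNA per neutrophil cannot be told apart in such mixtures.

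In plasma S100a9 was 4.46-fold higher in HF (2.16 ± 0.20) and Camp 14.8-fold higher (3.88 ± 0.21). Changes of all sizes were more common there: 32.1% of the 12377 probes detected on both plasma arrays were at least 2-fold higher, 2029 (16.4%) by as much as S100a9 and 709 (5.73%) by as much as Camp. The change of S100a9 in plasma therefore lay within the upper part of the general spread. Without normalization S100a9 differed by 2.09-fold and Camp by 7.21-fold.

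**Figure D2:**
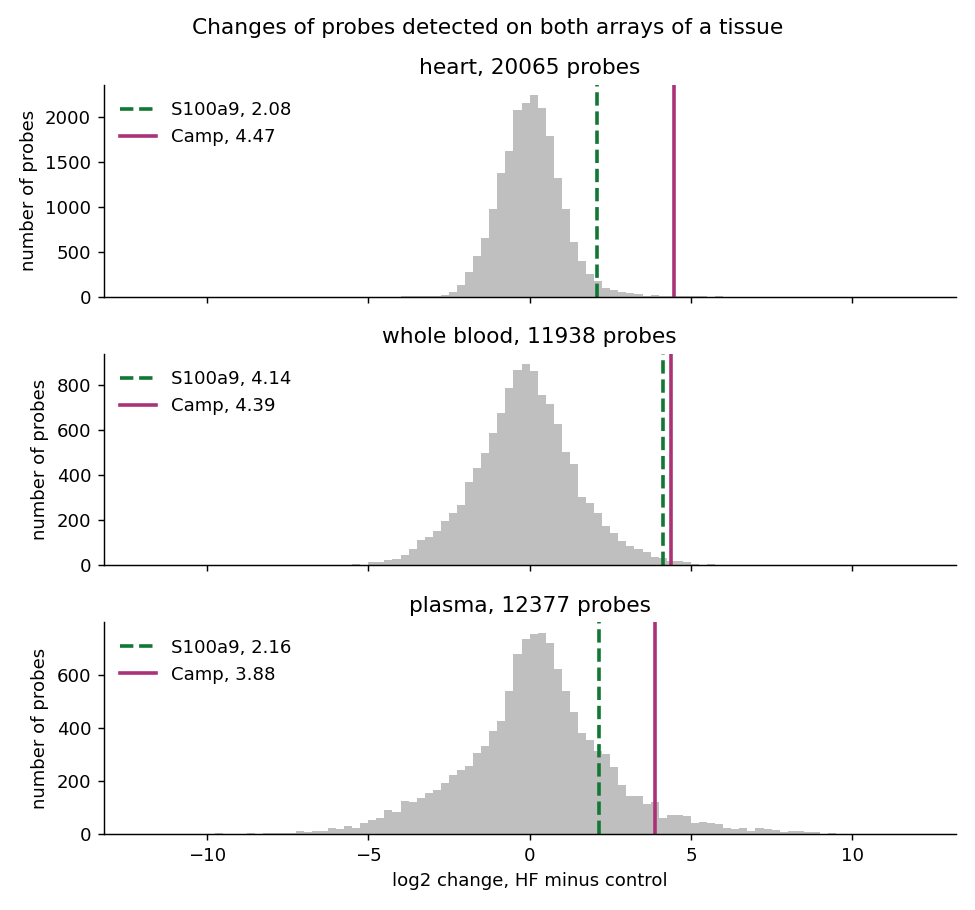
Number of probes (y axis) by log2 change from control to HF (x axis) among probes detected on both arrays of heart, whole blood and plasma, with vertical lines at the S100a9 change (dashed) and the Camp change (solid). The spread of all probes is wider in plasma than in heart, so the S100a9 changes of 2.08 in heart and 2.16 in plasma take different places in it.

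Few probes were higher in all 3 tissues. Of 7527 probes detected on all 6 arrays, 45 (0.598%) exceeded control by at least 2-fold in heart, whole blood and plasma of HF mice, and of 1475 named mRNA probes among them 13 (0.881%) were. These 13 were Camp, Tpm2, Gm4788, S100a9, Hsd3b7, Cfp, Gm14548, Mgp, Ear2, Samhd1, Serpinb5, Aprt and Ifitm6. Cfp is properdin, a complement protein that neutrophils also store, and Ear2 is a ribonuclease of eosinophils and macrophages. When these 7527 probes were ordered by the smallest of their 3 changes, no other probe among them reached the 3.88 of Camp. Ltf and Lcn2, other genes of specific granules, were outside this ranking because control whole blood did not detect them. In heart and plasma Ltf changed by 5.69 and 7.63 and Lcn2 by 4.09 and 4.13. In whole blood their lower bounds were 129-fold and 81.1-fold, so Camp was not alone in a large increase in all 3 tissues. The smallest change of S100a9, 2.08, was reached by 7 of the 7527 probes, itself included, and by 4 of the 1475 named mRNA probes. The 3 tissues were separate pairs of arrays, but the normalization was common to them.

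The pair of genes did not change by the same factor everywhere. In whole blood the change of Camp exceeded that of S100a9 by 0.25 ± 0.30 on the log2 scale, which is within the error. In heart it exceeded it by 2.39 ± 0.31 and in plasma by 1.73 ± 0.29, several times the error of the spots. The size of the gap in heart depended on the background correction. With the normexp correction described below, the changes there were closer, at 2.91 for Camp and 1.77 for S100a9. How far replicate mixtures would vary is unknown.

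Levels between tissues were compared within HF and within control. S100a9 was 3.05-fold lower in HF plasma than in HF whole blood (-1.61 ± 0.20), both on the same scan, and differed little between control plasma and control whole blood (0.38 ± 0.21). Camp differed by -0.40 ± 0.20 between HF plasma and HF whole blood and by 0.11 ± 0.22 between the control mixtures. The sign of both control differences depended on the normalization. HF heart was 11-fold below HF whole blood for S100a9 and 6.43-fold below it for Camp. In control mice the heart was 2.63-fold below whole blood for S100a9 and 6.78-fold below it for Camp. The HF arrays shared the scan, while the control arrays of heart and whole blood were on different scans. Without normalization whole blood exceeded heart by 2.18-fold for S100a9 and 1.52-fold for Camp in HF mice, and by 1.05-fold and 3.04-fold in control mice, so the size of each distance rested on the normalization.

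The neutrophil gene lists, 5 in all, hold 67 genes besides S100a9 and Camp, of which 23 had a named probe, 1 each. S100a8 and the azurophil proteases had none and were not analysed here. Both heart arrays detected 16 of the 23. At least 2-fold higher in HF were 6 of them and lower 0, and their median change was 0.82, against 13.9% higher, 12.9% lower and a median of 0.02 for all probes. In whole blood 7 were detected on both arrays, with 4 higher, 2 lower and a median of 1.17, against 21.4%, 26.8% and -0.13 for all probes. In plasma 11 were, with 8 higher, 1 lower and a median of 1.5, against 32.1%, 25.6% and 0.21. Without normalization the plasma count fell to 3 higher and 2 lower. In whole blood a further 11 of the 23 were detected in HF and not in control, so their changes are bounds, while 3 showed the reverse. The same counts were 4 and 3 in heart, and 5 and 5 in plasma. No share of all probes is given for a single tissue, so the whole blood count has no background beside it. Of the 23 probes 11 (47.8%) were detected on more HF than control arrays, 5 (21.7%) on fewer and 7 on as many, against 12.7% and 21.5% of all 59729 probes on more and on fewer. Where a detected spot also had to exceed the 99th percentile of the negative spots of its array, 9 of the 16 spots detected on HF plasma no longer passed, while all spots detected on HF heart and HF whole blood did. Under this stricter limit 4 probes were higher and 0 lower of 14 in heart, 4 higher and 2 lower of 7 in whole blood, and 6 higher and 0 lower of 6 in plasma, where 48.5% of all 5711 probes left were higher. Where a probe was well above background on only 1 array of a tissue, the fold is given as a lower bound, taken against the dimmest signal that counts as above background or the dim spot itself, whichever is higher. All bounds are on the normalized scale and were not computed under other normalizations, so they hold for that scale only. On control whole blood the dimmest signal counted as above background lay below the 99th percentile of the negative spots, 84.3. The bounds in whole blood are therefore less certain.

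The specific granule genes share their granule with Camp. Besides Camp they had 6 probes. In heart 5 of these were detected on both arrays, and 3 of the 5 were past 2-fold upward in HF and 0 downward. In plasma 4 of 4 were higher, while in whole blood 2 were detected on both arrays, with 0 higher and 1 lower. Among all probes 13.9% were higher and 12.9% lower in heart, 21.4% and 26.8% in whole blood, and 32.1% and 25.6% in plasma. Ltf, lactoferrin, an iron-binding protein, was at log2 levels of 4.28 and 9.97 in control and HF hearts, 4.5 and 12.79 in whole blood, and 5.26 and 12.89 in plasma. HF thus exceeded control by 51.7-fold in heart (5.69 ± 0.29), by at least 129-fold in whole blood and by 198-fold in plasma (7.63 ± 0.33). Lcn2, a lipocalin that withholds iron from bacteria, was at 5.30 and 9.39 in heart, 4.42 and 12.12 in whole blood, and 5.67 and 9.79 in plasma. HF exceeded control by 17-fold in heart (4.09 ± 0.23), by at least 81.1-fold in whole blood and by 17.5-fold in plasma (4.13 ± 0.29). The signal of Ltf in control plasma, 32.8, lay below the 99th percentile of the negative spots there, 39.5, so its fold in plasma is uncertain. Ngp, a relative of cathelicidin found in neutrophil granules, was detected in no control mixture. The lower bounds of its increase were 12.6-fold in heart and 33.1-fold in whole blood. In HF plasma its signal, 22.8, was flagged as detected but lay below the 99th percentile of the negative spots, 110.6, and no fold is given. Chil3, a chitinase-like protein of neutrophils and macrophages, was 9.03-fold higher in HF heart (3.17 ± 0.25) and at least 41.6-fold higher in whole blood of HF mice, and was detected in neither plasma mixture. Cyba and Cybb, the membrane subunits of the NADPH oxidase, which macrophages and B cells also carry, did not follow Camp in heart and whole blood. In plasma both were past 2-fold higher in HF. Cyba changed by -0.16 ± 0.20 in heart, 0.36 ± 0.21 in whole blood and 1.23 ± 0.21 in plasma, and Cybb by -0.94 ± 0.24, -1.68 ± 0.21 and 1.8 ± 0.20.

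Pglyrp1, a peptidoglycan-binding protein of neutrophil granules, was higher in HF by 8.84-fold in heart (3.14 ± 0.35), by at least 5.91-fold in whole blood and by 38.2-fold in plasma (5.25 ± 0.28). Its spot in control heart, at a signal of 30.0, lay below the 99th percentile of the negative spots there, 35.1, so the fold in heart is uncertain. Cd63, a membrane protein of azurophil granules and of lysosomes in most cells, changed by 0.99 ± 0.21 in heart and was detected in blood and plasma of control mice only. Among the cytosolic genes listed with S100a9, the stefin A genes Stfa1, Stfa2 and Cstdc5, inhibitors of cathepsins, were detected in HF heart and HF whole blood and in no control mixture. For Stfa2 the lower bounds were 4.6-fold in heart and 3.85-fold in whole blood, for Stfa1 they were 3.73-fold and 2.42-fold, and for Cstdc5 4.23-fold and 2.26-fold. Their HF plasma signals, 47.0 to 58.5, were flagged as detected but lay below the 99th percentile of the negative spots. These genes are near copies of each other, so their probes may have read the same transcripts and their values are uncertain as to the gene. Cstb, stefin B, a related inhibitor made by most cells, changed by 0.54 ± 0.20 in heart. HF exceeded control by at least 3.71-fold for Cstb in whole blood, and in plasma it was detected in control mice only, where it was at least 1.65-fold higher.

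The 11 receptor and signalling genes did not move together. In heart 8 were detected on both arrays, with 2 at least 2-fold higher and 0 lower, beside 13.9% and 12.9% of all probes. The 2 were Clec4d, a lectin receptor of myeloid cells, by 9.43-fold (3.24 ± 0.32) and Ncf4, a cytosolic subunit of the NADPH oxidase, by 3.09-fold (1.63 ± 0.32). Clec4d was lower in HF whole blood (-1.47 ± 0.24) and changed by -0.36 ± 0.22 in plasma. Csf2ra, a receptor subunit for GM-CSF, changed by 0.89 ± 0.20 in heart, 2.53 ± 0.21 in whole blood and 1.5 ± 0.21 in plasma. Pira6, an activating receptor, changed by -0.32 ± 0.21, 1.83 ± 0.27 and 1.34 ± 0.22, and Cxcl2, a chemokine that attracts neutrophils, by 0.54 ± 0.23 in heart and 1.68 ± 0.32 in plasma, with a lower bound of 3.78-fold in whole blood. Csf3, the growth factor that drives neutrophil production, was detected on both whole blood arrays and was 5.87-fold higher in HF (2.55 ± 0.28), while in plasma it was detected in control mice only. Alox5ap, needed for leukotriene synthesis, changed by -0.07 ± 0.20 in heart, 1.17 ± 0.21 in whole blood and -3.37 ± 0.24 in plasma. The spot of Clec4d in control heart and those of Clec4d, Cxcl2 and Alox5ap in HF plasma lay below the 99th percentile of the negative spots, so these changes are uncertain. Il1b, Cd33, Clec4n and Selplg were detected on 2 to 4 of the 6 arrays, and none of them was at least 2-fold changed between arrays that both detected it.

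**Figure D3:**
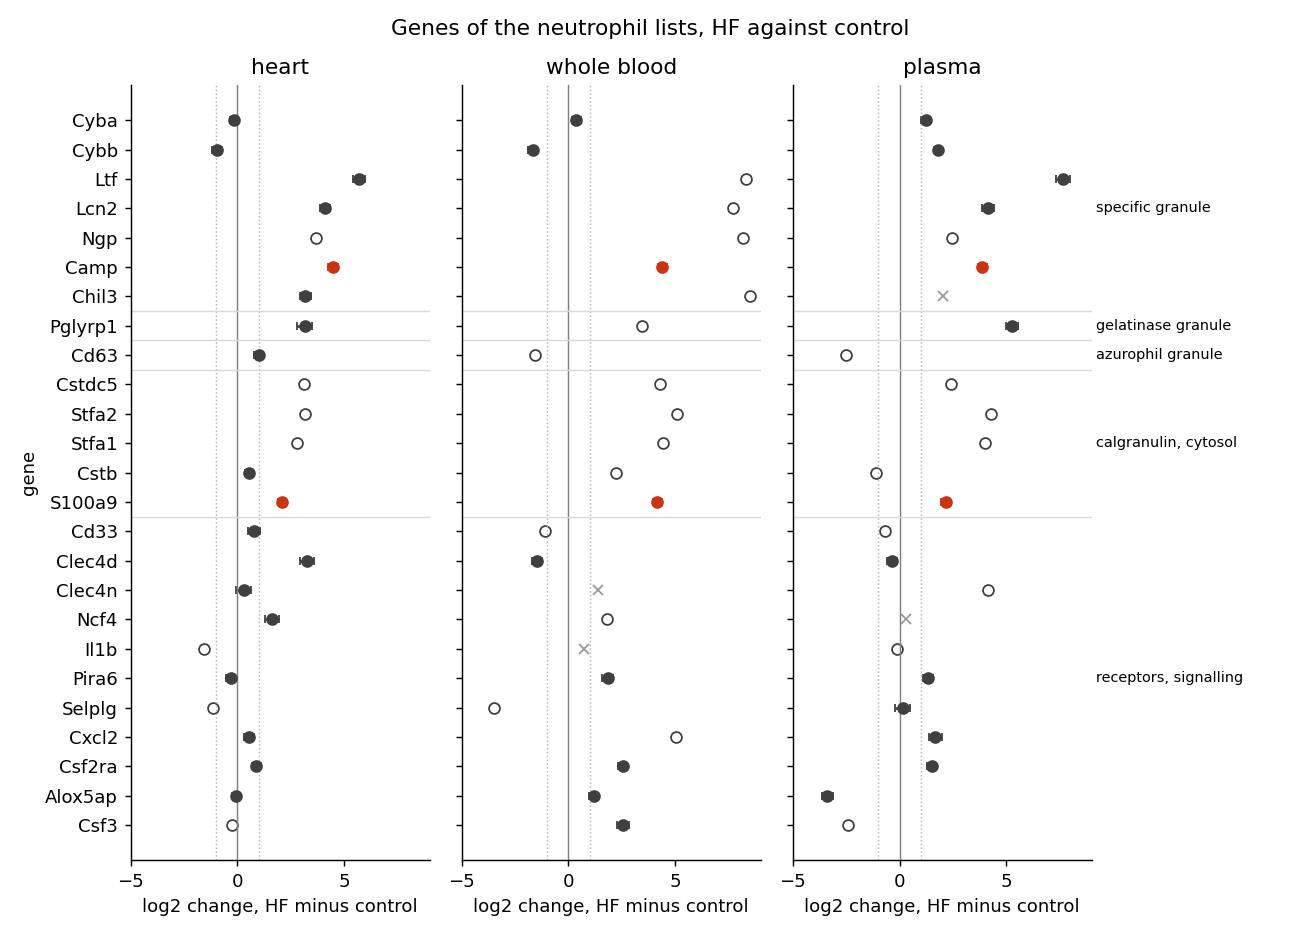
Log2 change from control to HF (x axis) of S100a9 and Camp (red) and the 23 other genes of the neutrophil lists (black), grouped by list, in heart, whole blood and plasma. Filled points were detected on both arrays and carry bars for the error of the spots, and dotted lines mark 2-fold. Open circles were detected on 1 array and crosses on neither, and both lie at the plain difference, not at a lower bound. Most granule genes lie right of the 2-fold line, while receptor genes lie on both sides. In whole blood Camp is the only granule gene right of the line that both arrays detected.

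The other S100 genes did not follow S100a9. S100a10, a partner of annexin A2, had log2 changes of 1.58 ± 0.20 in heart, -0.84 ± 0.20 in whole blood and -6.12 ± 0.29 in plasma. S100a13, which takes part in the release of growth factors, changed by 1.03 ± 0.20, -1.17 ± 0.20 and -5.09 ± 0.35, and S100a14, an epithelial member, by -1.89 ± 0.20, -0.98 ± 0.20 and 0.43 ± 0.20. None of these 3 was at least 2-fold higher in all tissues. The HF plasma signals of S100a10, 30.1, and S100a13, 21.9, lay below the 99th percentile of the negative spots, 110.6. The size of their changes in plasma is therefore uncertain. Of 11 probes of transcription factors of granulocyte formation, 8 were detected on both heart arrays. By at least 2-fold 0 were higher and 3 lower, beside 13.9% and 12.9% of all probes. Cebpb, a factor induced in emergency production of granulocytes, changed by -1.55 ± 0.20 in heart, 2.78 ± 0.21 in whole blood and 0.21 ± 0.21 in plasma, and Cebpa, which sets the myeloid lineage, by -0.44 ± 0.20, -3.08 ± 0.21 and -0.40 ± 0.20. A list of binding partners of S100a9 and cathelicidin, which also holds the signalling kinase Irak1, had 12 probes. None of them was of Tlr4, Ager or a formyl peptide receptor. Both heart arrays detected 11, with 0 higher and 7 lower, a share to be read against the 12.9% of all probes that were at least 2-fold lower. Of these 7, 4 were probes of Cd36, a fatty acid transporter of heart muscle that also binds calprotectin, with changes between -2.62 and -2.24. The others were of Bsg (-2.02) and Irak1 (-1.10 and -1.02), so the count comes from few genes. Further probes of Irak1 detected on both heart arrays changed by only -0.12 and 0.04.

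Markers of other cells differed between the same mixtures. In heart the 13 pan-leukocyte probes had 10 detected on both arrays with 0 higher and 2 lower by at least 2-fold and a median change of -0.01, the 8 T cell probes 3 with 1 higher and 1 lower, and the 7 B cell probes 5 with 1 higher and 0 lower. Of all probes 13.9% were higher and 12.9% lower there. All 6 erythroid probes were detected on both heart arrays, with 2 higher and 0 lower and a median change of 0.66. The changed probes were those of Alas2, the first enzyme of haem synthesis in red cells, at 3.37-fold and 2.74-fold, while the globin genes Hba-a1 and Hbb-bt differed by 1.03-fold and 1.5-fold. The part of blood in the heart mixtures was not tested. Of the 12 monocyte and macrophage probes detected on both heart arrays 3 were higher and 4 lower, with a median of 0.10. The higher ones were Ear2 (3.03), Ccl6 (2.06) and Csf1 (1.40). Ly6c2, the brightest of the 12, went from 15.56 to 13.47 in heart, but was at only 9.95 in control whole blood. Which cells gave its signal in heart was not tested. Lgals3, a galectin of macrophages, was detected in HF heart only, at least 18.2-fold higher. S100a9 is also made by monocytes, and the part of these cells in its change was not tested.

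In whole blood the 3 B cell probes detected on both arrays had a median change of -4.13 with 0 higher and 2 lower, and a further 3 were detected in control mice only. The 3 platelet probes had a median of -1.21, with 0 higher and 2 lower, the 5 T cell probes detected on both arrays a median of 0.62, and the 8 pan-leukocyte probes a median of -0.42. Of 11 monocyte and macrophage probes detected on both arrays 6 were higher and 3 lower, with a median of 1.30. Among all probes detected on both whole blood arrays 21.4% were at least 2-fold higher and 26.8% lower, with a median of -0.13. Of the 23 cardiomyocyte probes 16 were detected in HF whole blood and not in control, with lower bounds of 282-fold for a probe of Atp2a2, the calcium pump of the sarcoplasmic reticulum, 149-fold for Actc1, cardiac actin, and 92.7-fold for Tnni3, cardiac troponin I. The Myh6 probe was bright in both, at 14.47 in control and 14.71 in HF whole blood. It was dimmer in the heart, at 10.88 in control and 10.68 in HF, so it did not behave as a heart marker on these arrays. HF heart itself held S100a9 and Camp at lower levels than HF whole blood. Of the 17 neutrophil list probes detected in both HF heart and HF whole blood, 14 were higher in whole blood, with a median difference of 1.44, against 52.3% and 0.20 for all 13106 probes detected in both. The part of the lower B cell level and of the heart transcripts in the blood values was not tested.

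In plasma the 4 erythroid probes detected on both arrays had a median change of -6.18 and the 2 platelet probes one of -4.37, while the 4 B cell probes had a median of 0.06, with a further 3 detected in control mice only. The 9 pan-leukocyte probes had 2 higher and 3 lower and a median of -0.18, beside 32.1%, 25.6% and 0.21 for all probes detected on both plasma arrays. The haemoglobin gene Hbb-bt, for example, was at a log2 level of 17.58 in control plasma and 7.70 in HF plasma. Its HF plasma signal, 93.7, lay below the 99th percentile of the negative spots, 110.6. So did those of the platelet genes Gp5, 31.9, and Gp1bb, 63.3, and the size of these changes is uncertain. S100a9 and Camp thus lay higher in the plasma mixture that held fewer red cell and platelet transcripts. Between HF plasma and HF whole blood the erythroid sum was 35.6-fold lower, while 5 of 14 neutrophil list probes detected in both were higher in plasma, with a median difference of -0.28, against 51.8% and 0.11 for all 11258 probes detected in both. Of the spots of the neutrophil lists detected on HF plasma, 9 lay below the 99th percentile of the negative spots, as given above. Whether whole cells, cell fragments or free RNA gave the plasma signals was not tested.

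**Figure D4:**
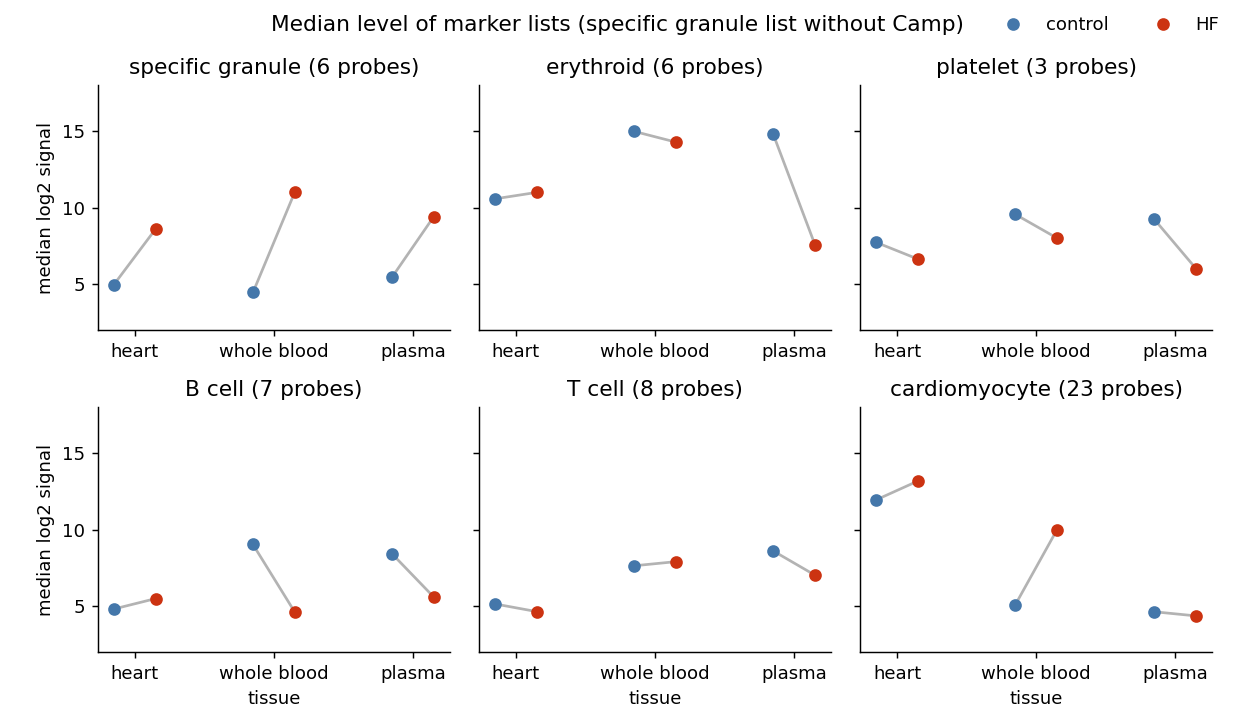
Median normalized log2 signal (y axis) over the probes of the specific granule genes without Camp and of 5 marker lists of other cells, detected or not, in control (blue) and HF (red) mixtures of heart, whole blood and plasma, with the number of probes in each title. The specific granule median is higher in every HF mixture, the erythroid and platelet medians are lower in HF than in control plasma, the B cell median is lower in HF than in control whole blood, and the cardiomyocyte median is 9.99 in HF whole blood and 5.09 in control whole blood.

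Profiles over the 6 arrays were compared as the Euclidean distance between log2 levels centred on their mean, among 3729 named probes detected on at least 3 arrays. The probe nearest to Camp was that of S100a9, at a distance of 2.23, followed by Ceacam10 at 2.31, Stfa2 at 2.38, Rab44 at 2.40 and Cstdc5 at 2.47. Nearest to S100a9 were Wipf3 at 1.58, Tnni1 at 1.65, Rab44 at 1.72, Wfdc18 at 1.75 and Gm14548 at 1.86, and Camp was at rank 14. Ceacam10, Stfa2 and Cstdc5 were detected on the 3 HF arrays only and passed the limit of 3 arrays through these, so their place is a description. Wipf3, Tnni1 and Wfdc18 followed S100a9 in blood and plasma but not in heart, where their changes were 0.32, -0.07 and -0.04, and Wfdc18 was detected on 3 arrays in all.

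Other ways to process the arrays moved the sizes but not the direction of the changes of S100a9 and Camp in any tissue. Over 8 alternatives the log2 change of S100a9 lay between 1.44 and 2.50 in heart, 2.65 and 4.87 in whole blood, and 1.07 and 3.60 in plasma. That of Camp lay between 2.91 and 5.07 in heart, 3.16 and 5.12 in whole blood, and 2.85 and 5.33 in plasma. All of these exceed 2-fold, S100a9 in plasma by the least, without normalization. The lowest value of Camp in heart came with the normexp background correction, whose offset of 50 raises dim signals such as that of control heart.

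**Figure D5:**
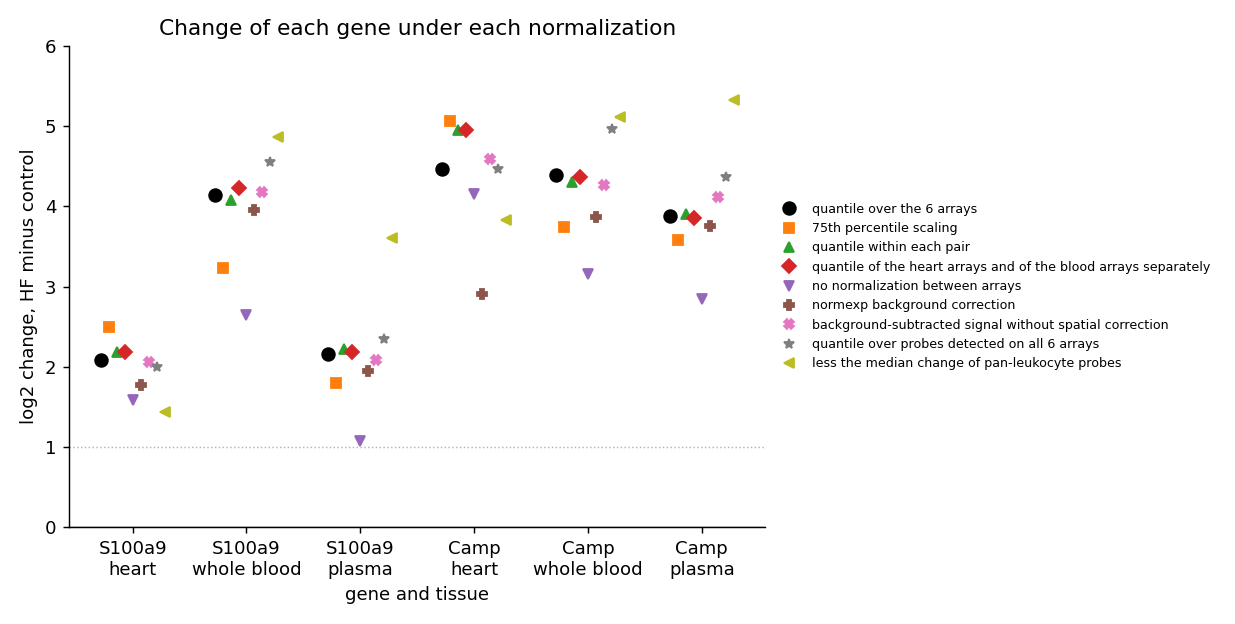
Log2 change from control to HF (y axis) of S100a9 and Camp in each tissue (x axis) under the main normalization (black circle) and 8 alternatives (coloured symbols), with the dotted line at 2-fold. All points lie above the line, the lowest being S100a9 in plasma at 1.07.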

How the data were processed

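Arrays in a single colour measured LncRNAs and mRNAs in 6 RNA mixtures, which the sample labels assign to 3 tissues of HF and control mice. The authors' deposited scanner files give for each spot an intensity whose background was subtracted by Agilent Feature Extraction 11.0.1.1, with no normalization between arrays, and the deposited table of the series holds the same intensity values, with 0 spots that differ. A spatial correction by the scanner software was present on 4 arrays and absent on control whole blood and HF plasma. Gene names came from the part of the study's table of mRNA probes held here, 4093 probes, of which 3977 were matched to a current symbol by accession.

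Without the control spots, log2 signals were averaged per probe and then quantile normalized with limma 3.58.1 over the 59729 probes. S100a9 and Camp had 1 spot each. A change is the difference of log2 levels, and its error combines the errors of both spots. Of 15 probes printed 20 times, 10 to 14 were detected on an array. The median SD between the spots of these detected probes was 0.0498 to 0.199 on the log2 scale, depending on the array. The largest SD of a probe was 1.75 on HF plasma and 0.656 on control whole blood. Comparisons took the probes that both arrays of a tissue detected and a threshold of 2-fold, after the filter of the study's methods. The precision rests on 1 array per condition. Files hold no count or depth.

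S100a9, Camp, the genes of 5 neutrophil lists and the 5 nearest profiles were named by rule. Of the other 15 marker lists, the brightest genes and those changed in heart were in the rule as well, and are given only where a result turns on them. The members and lists were chosen with earlier results of these data known. Alternatives were quantile normalization within pairs or separately for heart and blood, 75th percentile scaling, no normalization, normexp on the median intensities with an offset of 50, other detection flags, no detection filter, and folds of 1.5 and 4. The background-subtracted signal without spatial correction, normalization over probes detected on all 6 arrays, and changes less the median of 5 pan-leukocyte probes were added after the data had been seen, as was a count over spots above the 99th percentile of the 1200 negative spots of an array. Computations used R 4.3.3, Python 3.11.15, numpy 2.4.6, pandas 2.3.3 and scipy 1.17.1.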

Additional observations from a re-analysis of the deposited data

Results flagged for a closer look

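Genes of the neutrophil lists changed in opposite directions in a pair of tissues in 3 cases, each past 2-fold on arrays that detected the gene. Cybb, a subunit of the NADPH oxidase, was lower in HF whole blood (-1.68) and higher in HF plasma (1.8), a gap of -3.48 on the log2 scale. Clec4d, a lectin receptor, was higher in HF heart (3.24) and lower in HF whole blood (-1.47), a gap of 4.71, with a control heart spot below the 99th percentile of the negative spots. Alox5ap was higher in HF whole blood (1.17) and lower in HF plasma (-3.37), a gap of 4.55, with an HF plasma spot below that percentile. With 1 array per condition the difference was not tested in any of them. S100a9 and Camp showed no such pattern.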

How the results depend on the processing

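No paired analysis was possible because each condition had 1 array and the labels carry no replicate numbers, and for the same reason no replicate could be left out. Both genes stayed more than 2-fold higher in HF in each tissue under the alternatives run. Values are log2 changes in heart, whole blood and plasma in that order, where they moved beyond the error of the spots. With 75th percentile scaling S100a9 changed by 2.50, 3.23 and 1.8 and Camp by 5.07, 3.74 and 3.58. Without normalization S100a9 changed by 1.59, 2.65 and 1.07 and Camp by 4.16, 3.16 and 2.85. With normexp S100a9 changed by 1.77 in heart and 1.95 in plasma, and Camp by 2.91 in heart and 3.87 in whole blood. Normalized over probes detected on all 6 arrays, S100a9 changed by 4.55 in whole blood and Camp by 4.96 there and 4.37 in plasma. Less the pan-leukocyte median (0.64, -0.73 and -1.44), S100a9 changed by 1.44, 4.87 and 3.60 and Camp by 3.83, 5.12 and 5.33. Camp changed by 4.95 in heart with quantiles within each pair or separately for heart and blood, and by 4.12 in plasma on the signal without spatial correction.

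Between HF plasma and HF whole blood S100a9 differed by -1.02 with 75th percentile scaling and -1.94 with quantiles within pairs, and Camp by -0.05 and -0.78, and by -0.62 without normalization. In control mice this difference turned negative, for S100a9 at -0.07 within pairs and -0.01 without normalization, and for Camp at -0.39 within pairs, -0.32 without normalization, -0.15 with normexp and -0.13 without spatial correction.

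At least 2-fold changed were 6, 6 and 9 neutrophil list probes. The count was 12, 21 and 18 with no detection filter, where undetected probes enter. The positive and significant flag gave 13 in whole blood and 14 in plasma, and probes detected on all 6 arrays gave 1 in heart and 5 in plasma, as fewer probes were left. A fold of 1.5 gave 10 in heart, a fold of 4 gave 2 in whole blood and 4 in plasma, and no normalization gave 5 in plasma, 3 higher and 2 lower. With spots above the 99th percentile of the negative spots the counts were 4, 6 and 6. Where no construction shows it, the cause was not tested. Dim control spots limit the folds of Camp in heart and whole blood, and dim spots limit those of all genes given by a bound.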

Other observations

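Of the probes of the acute phase and of interleukin-1 signalling both heart arrays detected 10, of which 6 exceeded 2-fold in HF and 0 were lower by as much, beside 13.9% and 12.9% of all probes. Apart from Lcn2, which the neutrophil lists also hold, Serpina3n, a protease inhibitor made in inflammation, was 9.05-fold higher (3.18 ± 0.20), Socs3, a feedback inhibitor of cytokine signalling, 3.08-fold (1.62 ± 0.20) and Il1rap, a subunit of the interleukin-1 receptor, 2.80-fold (1.49 ± 0.20). Chil1, a chitinase-like protein, was detected in HF heart only, at least 3.88-fold higher. The 4 probes within 2-fold were those of Il18r1 (-0.01), Il18bp (0.08), 1 of the Cp probes (0.26) and Cxcl2 (0.54), and Il1b was detected in control heart only, at least 1.61-fold higher than in HF heart.

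Of the 3 eosinophil probes that of the ribonuclease Ear2 was higher in each HF mixture. That of the ribonuclease Ear12 was higher in HF heart and HF whole blood, and that of Prg2, the major basic protein, was not. Ear2 was 8.18-fold higher in HF heart (3.03 ± 0.21), 2.46-fold in whole blood (1.30 ± 0.22) and 2.67-fold in plasma (1.42 ± 0.21). Ear12 was 10.5-fold higher in HF heart (3.39 ± 0.29), with a lower bound of 4.34-fold in whole blood. In HF plasma its signal, 46.6, was flagged as detected but lay below the 99th percentile of the negative spots, 110.6, and no fold is given. These ribonucleases are a family of close copies, so the gene that a probe read is uncertain. Prg2 was detected in control heart and not in HF heart, changed by -0.65 ± 0.44 in whole blood, and was flagged as detected in HF plasma and not in control plasma. Its spots in control whole blood and HF plasma, at signals of 66.7 and 87.1, lay below the 99th percentile of the negative spots of their arrays. Of 5 fibroblast probes 4 were detected on both heart arrays, with 2 higher and 0 lower and a median of 1.54. Of 3 hepatocyte probes 1 was detected on both whole blood arrays, with 0 higher and 1 lower, and 2 on both plasma arrays, with 1 higher and 0 lower. Of 4 eye probes 3 were detected on both whole blood arrays, with 1 higher and 2 lower, and 2 on both plasma arrays, with 0 higher and 0 lower. Among all probes 13.9% were higher and 12.9% lower in heart, 21.4% and 26.8% in whole blood, and 32.1% and 25.6% in plasma. These counts rest on too few probes to be set apart from those shares.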
